A study of Drosophila melanogaster with 6 samples.

Results

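The antioxidant enzyme genes are 10 genes whose products remove superoxide and peroxides or supply the reducing power for this: Sod, Sod2, Cat, Prx3, Prx5, Jafrac1, Jafrac2, Trxr-1, Trx-2 and PHGPx. They were chosen by name. A probe set was assigned to a gene when the array annotation gives it that symbol alone, or a synonym of the same gene ID. Of the 10 genes, 6 had such a probe set, 1 each (Sod2, Cat, Prx3, Trxr-1, Trx-2 and PHGPx), among 11982 named genes. Sod, Prx5, Jafrac1 and Jafrac2 have none in the annotation used here and were not analysed.

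The samples are larval fat bodies from 3 *delg* mutant and 3 control samples, each on 1 Affymetrix array. The mutant larvae carry the *delg* stop codon allele delg613 over the deficiency Df(3R)ro80b, and the controls carry a wild type chromosome over the same deficiency, so that both genotypes have 1 copy of the deleted region. Delg is the fly homologue of the alpha subunit of NRF-2/GABP, a mammalian activator of genes for mitochondrial proteins, and the arrays addressed whether such genes need it. The labels give 60 fat bodies per sample and an age of 6 days, in the same words for both genotypes. These words call the larvae mutant on the control samples too, so that the age of the controls is not certain from them, while the paper describes late L3 or wandering larvae. In other experiments of the study the mutant larvae were older than the controls at the same stage, and if this held here, age and genotype cannot be told apart. Since each sample pools many animals, the replicates measure the spread between pools, and the labels do not say whether the pools came from separate crosses.

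The fat body markers were present on every array, with Lsp2, a larval serum protein gene, between 57153 and 75546 signal units. Control replicate 2 stood apart. The summed signal of 6 salivary gland genes was 281 there, against 196915 to 239947 in the mutant samples and 202121 and 314596 in the other controls. Fbp1, a fat body gene of late larvae, was at 1103 in control replicate 2 and at 40320 or more elsewhere. Results of the members and of the called redox genes that rest on this sample are therefore given with and without it. The *delg* probe set (Ets97D) read 71.7, 87.1 and 91.9 in the mutant against 135, 122 and 213 in the control. Its log2 fold change of -0.87 (adjusted p = 0.267 from limma) does not check the labels, since a stop codon allele need not remove the transcript. In dissected tissue, less RNA of a gene per cell and fewer cells that express it cannot be told apart.

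Respiring mitochondria release superoxide. Superoxide dismutases turn it into hydrogen peroxide, the manganese enzyme Sod2 in the mitochondrial matrix and the copper and zinc enzyme Sod in the cytosol. Hydrogen peroxide is then removed by catalase in peroxisomes and by peroxiredoxins in the other compartments, of which Prx3 is a mitochondrial one. Peroxiredoxins are reduced again by thioredoxin and thioredoxin by thioredoxin reductase, a route that carries more weight in flies than in mammals because flies have no glutathione reductase of their own.

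The 2 mitochondrial enzymes that were measured, Prx3 and Sod2, were the members with the lowest fold changes. Prx3 fell in the *delg* mutant, and Sod2 was lower in every mutant sample but did not pass the test over all probe sets. The other 4 members, among them the cytosolic thioredoxin Trx-2, were not called. At an adjusted p under 0.05 from limma, 1 of the 6 members fell and none rose (2 and 0 at an unadjusted p under 0.05). Over all named genes 3.75% fell and 4.45% rose, and 11.7% were lower and 11.3% higher at the unadjusted threshold. Over all probe sets 669 rose and 570 fell, and 858 rose and 361 fell after centring each array. By the methods' t-test 3 members were lower and 0 higher at the methods' own threshold, and 0 in either direction after Benjamini-Hochberg adjustment. The share of all named genes at that unadjusted threshold was not computed, so these 3 cannot be set against a background. The median log2 fold change of the 6 members was -0.34, that of all named genes was -0.09, and 5 of the 6 members lay below 0 compared with 54.4% of all named genes.

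Prx3, the mitochondrial peroxiredoxin, gave signals of 1902, 2013 and 2006 in the mutant samples against 3618, 11577 and 5382 in the controls. The mutant samples lay close together, the highest 1.06-fold above the lowest, whereas the controls spanned 3.20-fold, with replicate 2 far above the others. The genotypes did not overlap. The log2 fold change was -1.62 (standard error, SE, 0.38, 95% interval -2.48 to -0.77, adjusted p = 0.0402 from limma), and 6.08% of named genes had a lower one. Against control replicate 1, the lowest control, the 3 mutant samples differed by -0.93 to -0.85 on the log2 scale, and against control replicate 2 by -2.61 to -2.52. Without control replicate 2 the fold change was smaller, at -1.16, and still called (adjusted p = 0.00791). The call was lost when any single mutant sample or control replicate 3 was left out (adjusted p from 0.110 to 0.146), and also after centring each array on its median (-1.48, adjusted p = 0.0670) and with 100 added to the signals (-1.58, adjusted p = 0.0528). At the same fold change, the adjusted p was 0.0578 with a replicate block, 0.181 without the variance trend and 0.221 by the methods' t-test.

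Sod2, which disposes of superoxide in the mitochondrial matrix, read 1194, 1140.5 and 1506 in the mutant samples against 2078, 4739.8 and 2394 in the controls. Every mutant sample lay below every control, and control replicate 2 was again the highest. The log2 fold change was -1.17 (SE 0.31, 95% interval -1.89 to -0.46) and did not pass the test (adjusted p = 0.0646 from limma). It was called when control replicate 1 was left out (-1.41, adjusted p = 0.0440) or control replicate 2 was (-0.81, adjusted p = 0.0285). With any mutant sample or control replicate 3 left out, the adjusted p was 0.125 to 0.198.

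Cat encodes catalase, the peroxisomal enzyme that splits hydrogen peroxide into water and oxygen. Its signals were 13364, 16455 and 12496 in the mutant samples and 22780.1, 14481 and 18498 in the controls. Mutant replicate 2 lay above control replicate 2, so that the genotypes overlapped. All mutant samples lay below control replicates 1 and 3. The log2 fold change was -0.38 (95% interval -0.91 to 0.15, adjusted p = 0.434 from limma). Without control replicate 2 it was -0.55 (adjusted p = 0.12 from limma).

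PHGPx encodes a glutathione peroxidase homologue of the fly, which is known to use thioredoxin as its reductant. It gave 17686, 18220 and 15880 signal units in the mutant and 20800, 13082 and 20215 in the control. The lowest and the highest values were both controls, and all mutant samples lay below control replicates 1 and 3. The log2 fold change was -0.03 (95% interval -0.57 to 0.50, adjusted p = 0.961 from limma), with a positive sign after centring each array on its median or quantile normalization and without mutant replicate 3, control replicate 1 or control replicate 3. Without control replicate 2 it was -0.25 (adjusted p = 0.403 from limma).

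**Figure D1:**
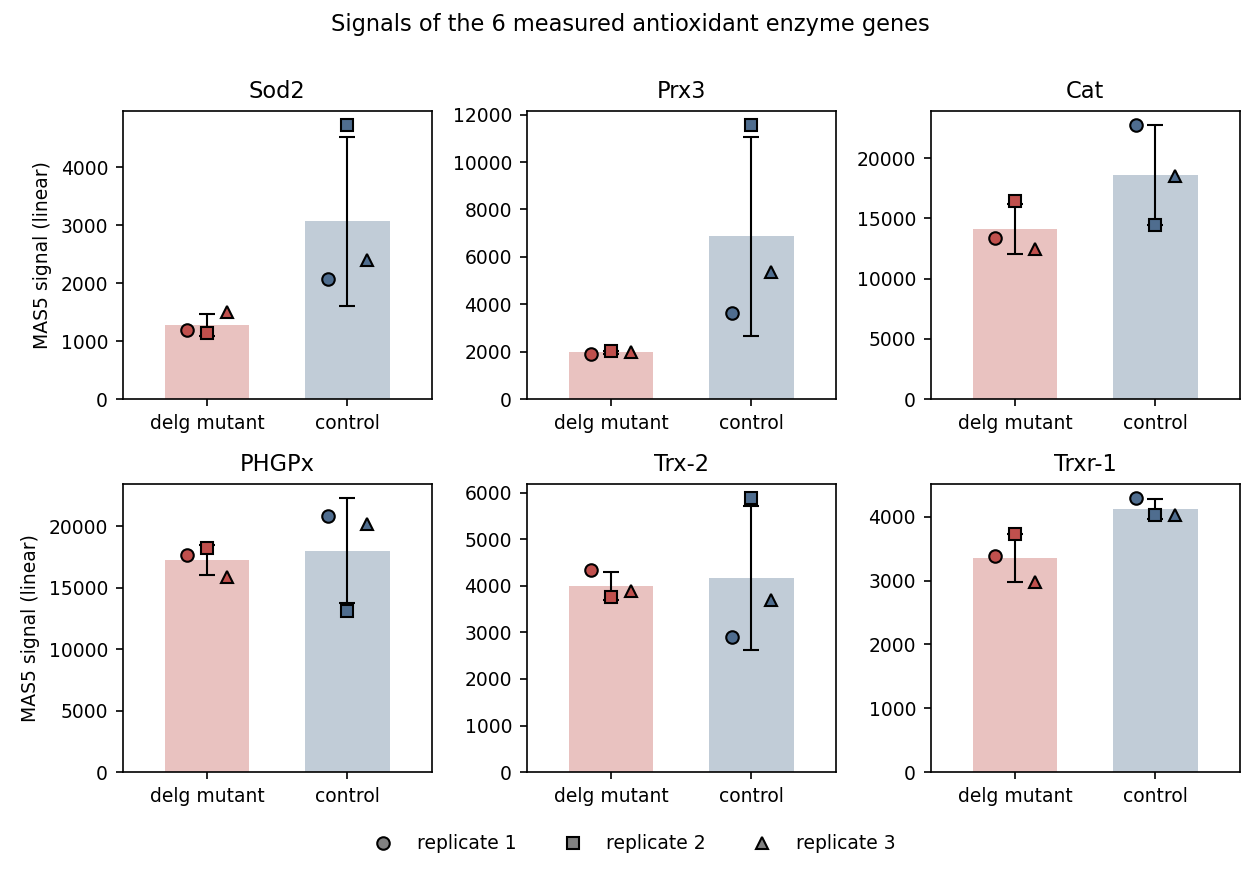
MAS5 signal (linear axis from 0) of the 6 measured antioxidant enzyme genes in 3 delg mutant and 3 control samples. Bars are means, error bars are SD (n = 3) and points are single arrays, their shape giving the replicate number. Prx3 and Sod2 are below every control in every mutant sample, and control replicate 2 is the highest sample for both and the lowest control for Cat and PHGPx.

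Trx-2 and Trxr-1 supply electrons to the peroxiredoxins. Trx-2, the main cytosolic thioredoxin, read 4341, 3766 and 3890.5 in the mutant samples against 2900, 5890 and 3697 in the controls. The mutant samples lay within the range of the controls, and the log2 fold change was 0.00 (95% interval -0.60 to 0.60, adjusted p = 0.997 from limma). The sign was negative without mutant replicate 1, control replicate 1 or control replicate 3. The value without control replicate 2 was 0.29 (adjusted p = 0.377).

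Trxr-1 encodes a thioredoxin reductase, whose transcripts make cytosolic and mitochondrial forms that its single probe set does not tell apart here. It gave 3379.8, 3724 and 2976 in the mutant and 4298, 4029.5 and 4027 in the control. All mutant samples lay below all controls and control replicate 2 did not stand out. The difference was small, with a log2 fold change of -0.30 (SE 0.17, 95% interval -0.68 to 0.09, adjusted p = 0.399 from limma). In 3 of the 6 members, Prx3, Sod2 and Trxr-1, the mutant samples lay below all controls, as they did in 15.6% of named genes. No member had all mutant samples above all controls, a pattern seen in 14.5% of named genes, which makes 30.1% without overlap in either direction.

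The compartments could be set against each other through 2 mitochondrial genes, Prx3 and Sod2, and 1 cytosolic gene, Trx-2. Cat, Trxr-1 and PHGPx were put in neither class. Within each array, the mean log2 signal of Prx3 and Sod2 minus the log2 signal of Trx-2 was taken and the mean of the controls subtracted, because levels of different probe sets are not comparable while their changes are. The result was -1.60, -1.38 and -1.23 in the mutant samples and -0.15, 0.26 and -0.11 in the controls. All mutant samples were lower than all controls. The difference of the means was -1.40, and the SD was 0.18 within the mutant and 0.23 within the control (n = 3 each). Taken alone, Prx3 relative to Trx-2 was -1.80, -1.52 and -1.57 in the mutant and -0.29, 0.36 and -0.07 in the control. Sod2 relative to Trx-2 was -1.39, -1.25 and -0.90 in the mutant and -0.01, 0.16 and -0.15 in the control. The controls came closer together in this measure than in the signals, as Trx-2 was also highest in control replicate 2. Without that sample the difference of the compartments was -1.27, of which a Trx-2 fold change of 0.29 was part. No test is given, since the members were known from earlier results, and with 1 cytosolic gene the comparison does not extend to cytosolic antioxidant enzymes at large.

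**Figure D2:**
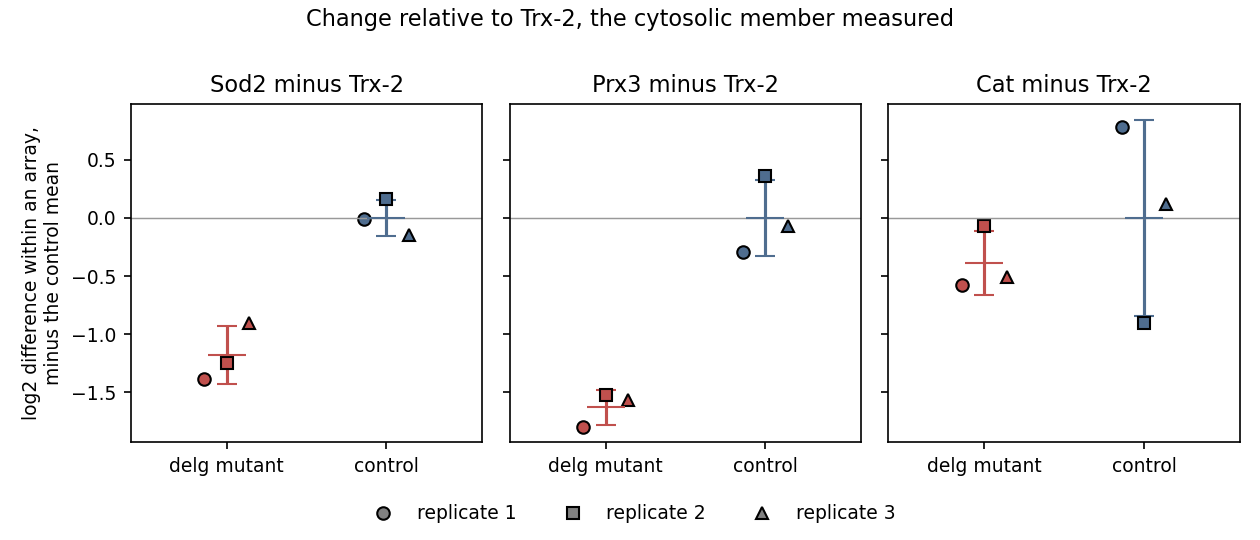
Log2 signal of Sod2, Prx3 and Cat minus that of Trx-2 within each array, after subtraction of the control mean (vertical axis, log2 units), for 3 delg mutant and 3 control arrays. Points are arrays, horizontal marks are means and error bars SD (n = 3). Sod2 and Prx3 separate the genotypes, with mutant values from -1.80 to -0.90 and control values from -0.29 to 0.36, whereas Cat, at -0.58 to -0.07 in the mutant and -0.90 to 0.78 in the control, does not. The control value of -0.90 for Cat is that of replicate 2.

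Among themselves the members differed most in control replicate 2. Relative to the other controls, this sample was 2.62-fold in Prx3, 2.13-fold in Sod2 and 1.80-fold in Trx-2. It was 0.705-fold in Cat, 0.638-fold in PHGPx and 0.968-fold in Trxr-1. Thus both mitochondrial enzymes and the cytosolic thioredoxin were high in the sample with low salivary gland and Fbp1 signals, and catalase and PHGPx were low there. The part of these marker signals in the values of the members was not tested. Prx3 and Sod2 were lower in the mutant also against control replicates 1 and 3 alone, as given above.

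**Figure D3:**
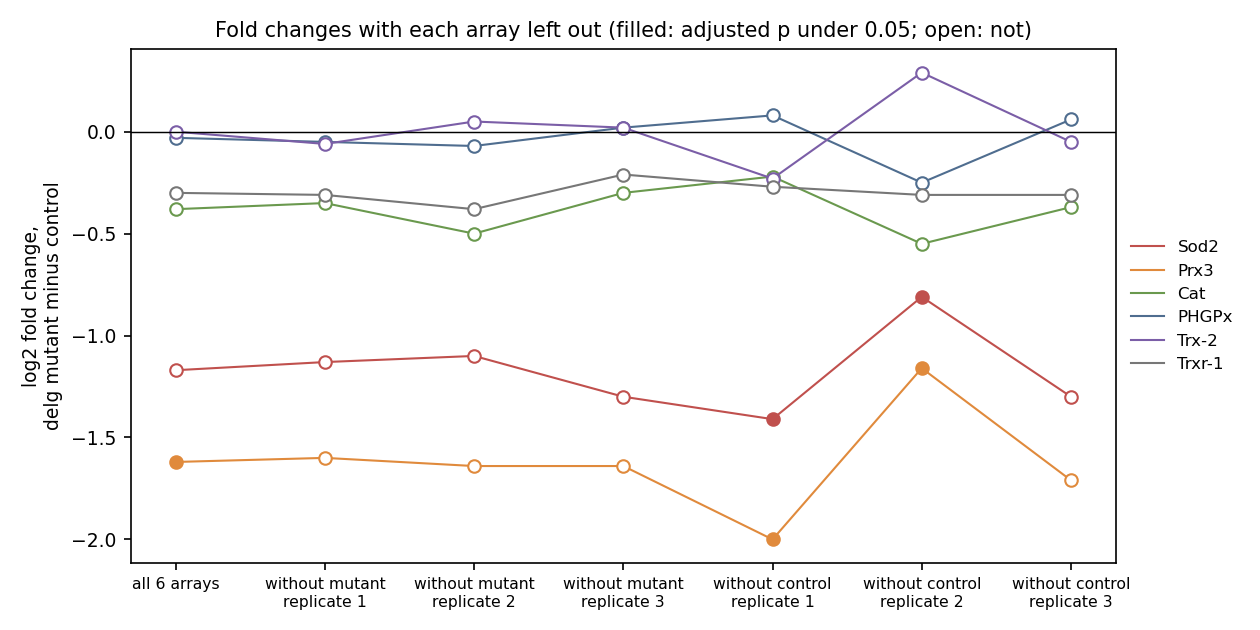
Log2 fold change (delg mutant minus control, vertical axis) of the 6 members with all 6 arrays and with each array left out in turn (horizontal axis). Filled points passed an adjusted p under 0.05 from limma and open points did not. Prx3 stays at -1.16 or lower and Sod2 at -0.81 or lower, while Trx-2 and PHGPx lie on either side of 0.

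The genes whose signals over the 6 arrays were most like those of Prx3 were SCOT, vkg and DhpD (Pearson's r of the log2 signals 0.998, 0.998 and 0.997 over 6 arrays, given as a description, since all were selected for this and share the arrays). SCOT encodes an enzyme of ketone body use and vkg a collagen IV chain of the basement membrane. SCOT was at 415, 456 and 442 in the mutant and at 916, 4924 and 1916 in the control. vkg read 4168, 4250 and 4893 in the mutant samples against 9165, 41821 and 16835 in the controls, which is the same order of the controls as in Prx3. DhpD had 2179, 2240 and 2178 in the mutant and 3426, 6336 and 4190 in the control.

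A wider list held 39 further redox genes by role, of which 33 had a named probe set. By an adjusted p under 0.05 from limma 5 of these rose and 2 (6.06%) fell, against 4.45% and 3.75% of all named genes. At an unadjusted p under 0.05, 8 were higher and 2 lower, against 11.3% and 11.7%. The 33 had a median log2 fold change of 0.06. The genes that rose encode a repair enzyme of peroxiredoxins, an enzyme of glutathione synthesis, 2 transcription factors of the oxidative stress response and an extracellular peroxidase.

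Srx, or sulfiredoxin, restores peroxiredoxins that have been over-oxidised by peroxide. Its signals were 10419, 7004 and 9177 in the mutant samples and 1589.6, 146 and 630.0 in the controls. All mutant samples lay above all controls by a wide margin, and control replicate 2 was the lowest. The log2 fold change was 4.05 (SE 0.72, adjusted p = 0.0149 from limma), and it was 3.13 (adjusted p = 0.00178) without control replicate 2. Without any one mutant sample or control replicate 3 the call was lost (adjusted p from 0.0549 to 0.0763), as it was without the variance trend (adjusted p = 0.103) and by the methods' t-test after adjustment (0.163).

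Gclc encodes the catalytic subunit of glutamate-cysteine ligase, which makes the first intermediate of glutathione. It gave 1219, 852 and 1036 in the mutant and 343, 320.0 and 409 in the control. The control samples agreed closely here, replicate 2 included. The log2 fold change was 1.53 (SE 0.22, adjusted p = 0.00645 from limma), and the call was lost without mutant replicate 3 (adjusted p = 0.0520), without the variance trend (0.0770) and by the methods' t-test after adjustment (0.0543). Gclm, which encodes the modifier subunit of the same enzyme and was chosen after its values were seen, had a log2 fold change of -0.11 (adjusted p = 0.941).

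cnc encodes the fly homologue of the mammalian factor Nrf2, which activates detoxification and antioxidant genes as a dimer with a small Maf protein, and maf-S encodes that partner. cnc read 5456, 4312 and 4650.1 in the mutant against 2810.0, 3077 and 2790.2 in the control, a log2 fold change of 0.73 (SE 0.17, adjusted p = 0.0438 from limma). maf-S had 970.0, 687 and 859 in the mutant and 398, 415 and 488 in the control (0.94, SE 0.22, adjusted p = 0.0405). In both genes the genotypes were separate, and the controls varied little. Both calls were lost when any one array other than control replicate 2 was left out (adjusted p up to 0.181 for cnc and up to 0.174 for maf-S), with a replicate block (0.120 and 0.102), without the variance trend (0.243 and 0.182) and by the methods' t-test after adjustment (0.0752 and 0.0970). That of cnc was also lost after centring each array (0.87, adjusted p = 0.0592) and on averaging its probe sets (1.34, adjusted p = 0.103). Keap1, which encodes the protein that holds the cnc product back and is named here after its values were seen, had 389, 300.3 and 388 in the mutant and 204, 241 and 267 in the control, a difference that did not pass (0.60, adjusted p = 0.242).

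The last of the 5 was Pxn, which encodes peroxidasin, a peroxidase of the extracellular matrix known from hemocytes. It gave 363, 332 and 610.0 in the mutant and 201, 153 and 111 in the control, a log2 fold change of 1.47 (SE 0.35, adjusted p = 0.0438 from limma). The call was lost without any one mutant sample or control replicate 3 (adjusted p from 0.0903 to 0.192), and the fold change was 0.25 (adjusted p = 0.917) when the probe sets of Pxn were averaged. It was also lost with quantile normalization (adjusted p = 0.0574), 100 added (0.0557), a replicate block (0.122), no variance trend (0.150) and the methods' t-test after adjustment (0.162). Hemocyte markers moved with it. The summed signal of 5 such genes, Pxn among them, was 5640 to 8946 in the mutant samples and 3446 to 3644 in the controls. Of the 5, 2 rose (Pxn and eater). Most of the sum was srp, at 4344 to 6126 in the mutant and 2698 to 3279 in the control. Hml was at 577 to 1030 in the mutant and 181 to 491 in the control. NimC1 was at 158 to 280 and 26.7 to 154, and eater at 213 to 900 and 3.62 to 79.2. The part of hemocytes in the signal of Pxn was not tested.

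**Figure D4:**
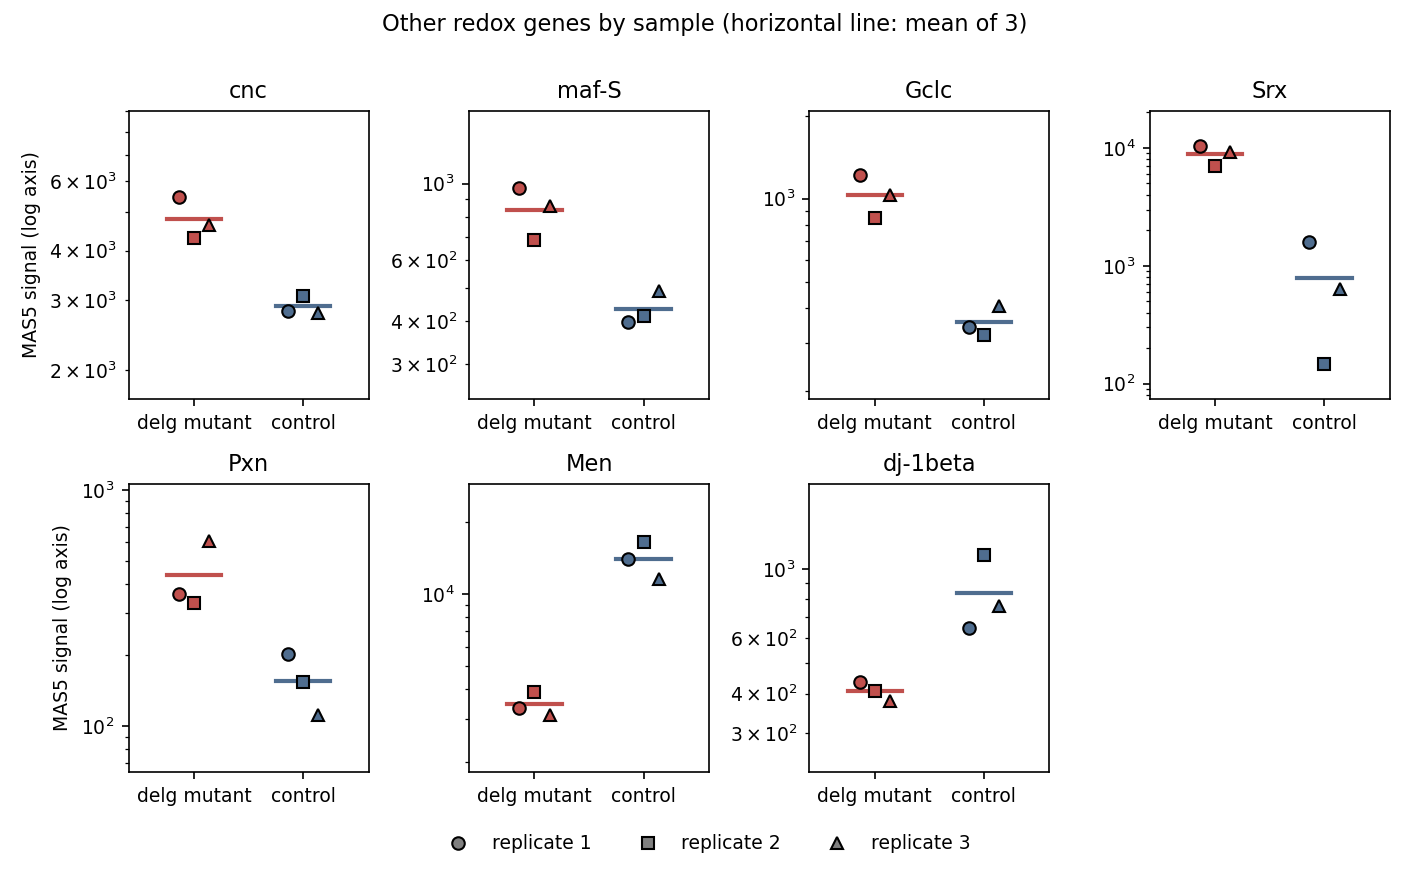
MAS5 signal (log axis) of the 7 further redox genes that passed an adjusted p under 0.05 from limma, in 3 delg mutant and 3 control samples. Points are arrays, their shape giving the replicate number, and horizontal lines are means. cnc, maf-S, Gclc, Srx and Pxn are higher in every mutant sample, and Men and dj-1beta lower.

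One of the genes that fell was Men. It encodes a malic enzyme, a source of the NADPH on which thioredoxin reductase draws. It read 3361, 3893 and 3143 in the mutant against 14012, 16540 and 11524 in the control. Its groups lay far apart and no sample stood out, with a log2 fold change of -2.01 (SE 0.20, adjusted p = 0.00132 from limma). The call was kept with each array left out and under every other alternative tried (adjusted p up to 0.0467). Idh, which encodes another NADPH-producing enzyme and was likewise chosen after its values were seen, had a log2 fold change of -0.64 (adjusted p = 0.340).

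The other gene that fell, dj-1beta, is a homologue of the human Parkinson's disease gene DJ-1 with a known role in resistance to oxidative stress. It gave 435, 408 and 379 in the mutant and 648, 1105 and 762 in the control, a log2 fold change of -1.01 (SE 0.25, adjusted p = 0.0494 from limma). Control replicate 2 was the highest sample, as for Prx3 and Sod2, and without it the value was -0.79 (adjusted p = 0.0438). The call was lost without any one mutant sample or control replicate 3 (adjusted p from 0.128 to 0.190) and after centring each array (-0.86, adjusted p = 0.123). It was also lost with 100 added (adjusted p = 0.0588), on averaging over probe sets of a gene (0.0515), with a replicate block (0.109), without the variance trend (0.195) and by the methods' t-test after adjustment (0.146).

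No gene was called in 3 of the 8 role groups. In the superoxide group, Sod3, an extracellular dismutase, had the smallest p (log2 fold change -0.30, adjusted p = 0.485 from limma). Among the other peroxiredoxins it was Prx6c (-0.56, adjusted p = 0.612). Among the other thioredoxins it was TrxT, known from the testis (-0.99, adjusted p = 0.308). The 7 genes of this group, which includes the reductase gene Trxr-2, ranged from -0.99 to 0.62 with a median of 0.12. The upper end was Trxr-2 (95% interval -1.55 to 2.80), at signals of 10.1 to 126. The 10.1 was control replicate 2, and the other samples read 41.4 or more. Its fold change without that sample was not computed. The mitochondrial candidates CG8993 and CG3719 had 0.12 (95% interval -0.40 to 0.64) and 0.13 (95% interval -0.49 to 0.76). Trxr-2 and these candidates were named after their values were seen.

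**Figure D5:**
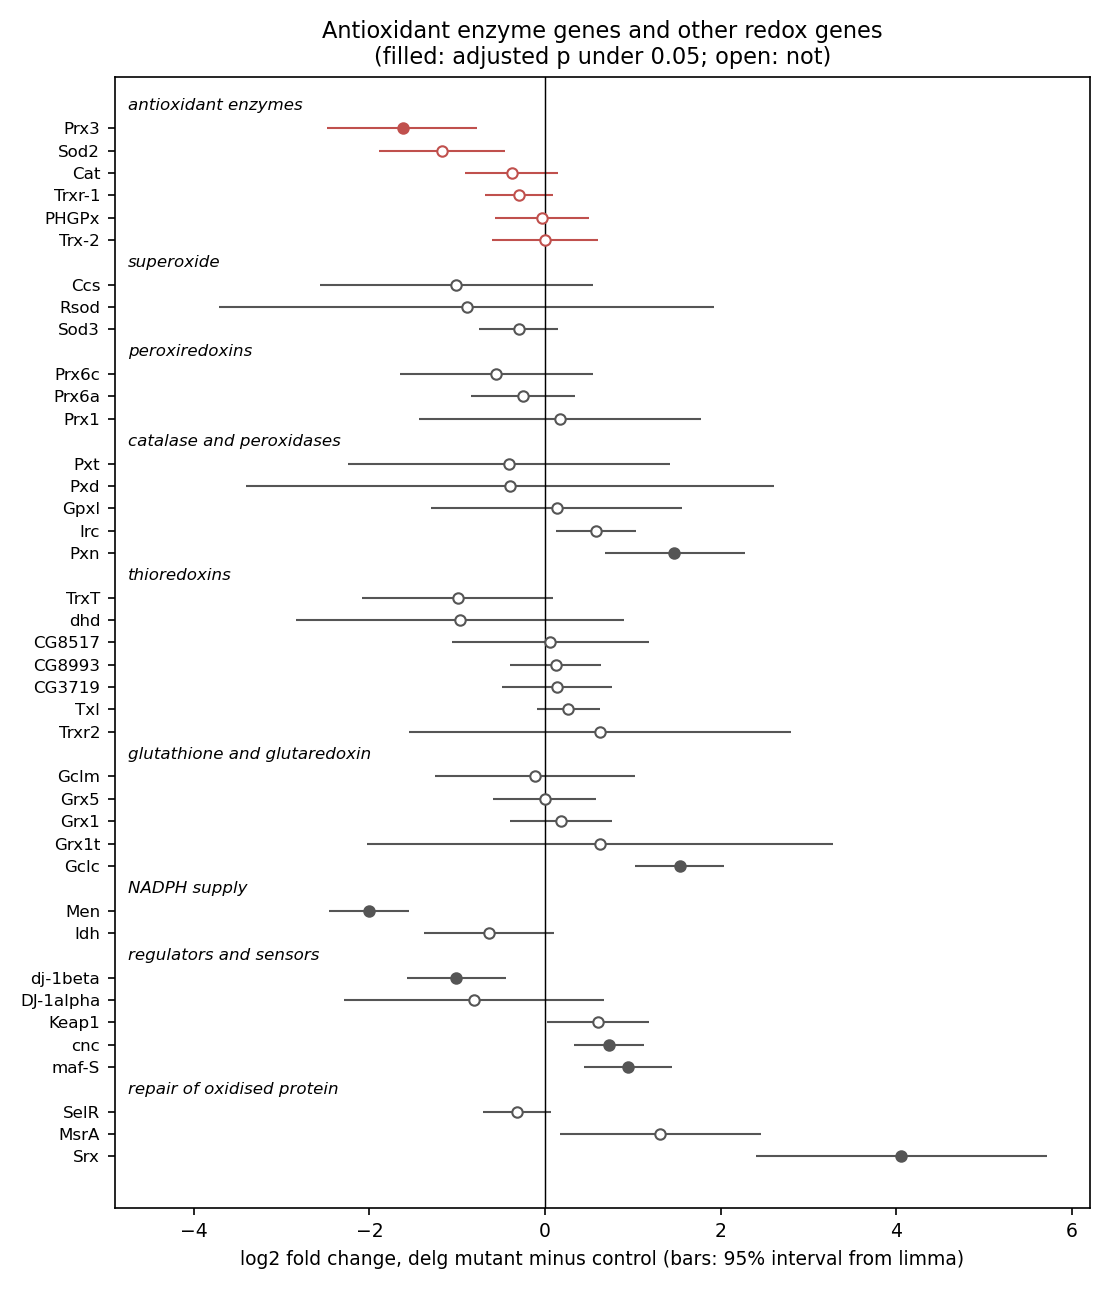
Log2 fold change of the 6 antioxidant enzyme genes (red) and of 33 other redox genes by role (grey), delg mutant minus control, with 95% intervals from limma (horizontal axis, log2 units). Filled points passed an adjusted p under 0.05 over all probe sets. Prx3 is the member that passed, and the other filled points run from Men at -2.01 to Srx at 4.05.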

How the data were processed

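RNA of 6 fat body samples, 3 per genotype, was hybridised to Affymetrix *Drosophila* Genome 2.0 arrays. The authors deposited the intensities as MAS5 signals on a linear scale. As tools, GCOS 1.4 and MAS5 are named in the submitters' processing notes. The mean signal, with 2% trimmed from each end, is 500 on every array. Detection calls were not used here. Every signal of a member was at least 1140, against array medians of 55.5 to 75.5. Depth has no meaning for arrays, and their number limits the precision.

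Signals were converted to log2 without a constant, a filter or further normalization. After removal of 183 control probe sets, the genotypes were tested on 18769 probe sets with lmFit and eBayes with trend (limma 3.58.1, R 4.3.3), with Benjamini-Hochberg adjustment over all of them and a threshold of 0.05. The t-test that the methods name was run as an alternative. Symbols came from the array annotation, updated by gene ID (13544 of 13647 probe sets with 1 symbol) through the RefSeq table of Release 6 plus ISO1 MT, and 402 probe sets with several symbols and 4720 with none were left unnamed. A gene was read from its brightest probe set. The probe sets of Trx-2 and PHGPx are of the type that may match several transcripts.

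The members and lists were chosen with earlier results of these data known. Named are all members, each further redox gene past the threshold or else the smallest p of its role group, and the 3 genes most like the member with the smallest p. The procedure was run on simulated data with changes larger than those of the members. This run does not bear on calls at the size of the members' changes. Alternatives were centring, quantile normalization, adding 100, a restriction to probe sets brighter than the median, a block for the replicate number, averaging over a gene's probe sets, each array left out, no trend, array weights and the methods' t-test.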

Additional observations from a re-analysis of the deposited data

How the results depend on the processing

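Of the members, 1 fell. This number was 0 after centring each array, with 100 added, with a replicate block, without the variance trend and by the methods' t-test after adjustment, 2 (Prx3 and Sod2) with quantile normalization and array weights, 3 by the methods' t-test without adjustment (chosen after seeing the data), and 0 to 2 with single arrays left out. The median of the members was -0.20 after centring and -0.44 to -0.25 with single arrays left out, and the difference between mitochondrial and cytosolic members was -1.49 to -1.27. PHGPx turned positive after centring (0.11) and quantile normalization (0.22), and ranged from -0.25 to 0.08 with single arrays left out. Trx-2 ranged from -0.23 to 0.29. No other member changed its direction, and neither did any redox gene named for passing the threshold or for the smallest p of its role group. The alternatives were not read for the redox genes chosen after their values were seen. Of the other redox genes 5 rose, against 3 after averaging over a gene's probe sets, 2 with the replicate block, 0 without trend, 0 by the adjusted and 8 by the unadjusted t-test, and 0 to 5 with single arrays left out. The 2 that fell were 1 after centring, with 100 added, with the replicate block, without trend and by the adjusted t-test, and 1 to 2 with single arrays left out. For the unadjusted t-test no share over all genes was computed, so its 3 members and 8 redox genes have no background beside them. Over all probe sets 669 rose and 570 fell. The numbers were 858 and 361 after centring, where the median fold change of all probe sets was 0.05 instead of -0.09, 422 and 265 with the replicate block, 146 and 83 without trend, 1079 and 1059 with array weights, 182 and 141 by the adjusted t-test, and 221 to 888 and 157 to 780 with single arrays left out. With the replicate block the adjusted p was 0.0578 for Prx3, 0.120 for cnc, 0.102 for maf-S, 0.122 for Pxn and 0.109 for dj-1beta, at unchanged fold changes. The labels give the samples only a shared number. Same-numbered samples did not deviate together (r from -0.07 to -0.01), which with so few samples cannot show whether they were handled together. The cause of these shifts was not tested. A left-out array leaves fewer samples.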

Other observations

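A few of the redox genes have a second, dimmer probe set, and these did not always move with the first. The second probe set of SelR, which encodes a methionine sulfoxide reductase, read 59.2, 36.2 and 46.3 in the mutant samples against 185, 150 and 189 in the controls (log2 fold change -1.91, adjusted p = 0.0301 from limma), while the brighter one had -0.32 (adjusted p = 0.372). That of Sod3 had -0.66 (adjusted p = 0.203) beside -0.30. The second probe set of cnc had 1.95 (adjusted p = 0.328), and that of Pxn, at signals of 1.67 to 38.2, had -0.98 (adjusted p = 0.810), against 1.47 for the brighter one.

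Among genes outside the naming rule, chosen after their values were seen, MsrA (Eip71CD), a methionine sulfoxide reductase gene first known as ecdysone-induced, read 2620, 4066 and 2888 in the mutant samples against 2499, 533 and 1508 in the controls (log2 fold change 1.31, adjusted p = 0.189 from limma), with control replicate 2 the lowest as in Srx. Irc, a catalase known from gut immunity, had 12438, 13779 and 12129 in the mutant and 10525, 7559 and 7857 in the control (0.58, adjusted p = 0.143). All mutant samples lay above all controls in both, but in MsrA mutant replicate 1 (2620) lay only just above control replicate 1 (2499). The fold change of MsrA without control replicate 2 was not computed.

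Midgut markers were uneven. The summed signal of 5 such genes was 47314 in mutant replicate 1 and 32 and 139 in the other mutant samples, and 733 to 3616 in the controls. Muscle markers summed to 317 to 466 in the mutant and 273 to 634 in the control.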
